A study of Mus musculus with 2 samples.

Results

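The transcription regulators that build the Paneth and goblet cell lineages of the small intestine were followed across 3 sorted cell populations. The set holds 9 genes, taken by symbol from the array's probe annotation. They are Spdef, Gfi1, Cbfa2t3, Cbfa2t2, Sox4, Hes6, Foxa3, Creb3l1 and Creb3l4. Of these, 7 had a named probe, 1 each, among 16390 named genes. For Sox4 and Hes6 no probe was named in the annotation used here, so they have no values below. Cbfa2t3 and Cbfa2t2 were listed under the older symbols Cbfa2t3h and Cbfa2t2h.

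All cells came from mice that carry Atoh1-crePGR together with Lgr5-EGFP-IRES-creERT2 and Rosa26-tdTomato, so the 3 alleles are shared by every population, and all mice received RU486 intraperitoneally on 5 days in a row. CrePGR is a Cre recombinase that RU486 switches on. It was expressed under Atoh1, so cells with Atoh1 at that time, and their progeny, keep tdTomato. EGFP reports the Lgr5 locus at the time of sorting. Small intestinal epithelium was sorted 20 days after recombination into EGFP+ve/tdTomato-ve cells (EGFP only), EGFP+ve/tdTomato+ve cells (double positive) and EGFP-ve/tdTomato+ve cells (tdTomato only). The sort took a pool of cells from 4 mice, whose ages the sources used here do not give, and each population is 1 biological replicate. The double-positive RNA was hybridised on the first of 2 two-colour arrays and the tdTomato-only RNA on the second, both in Cy3 and both against EGFP-only RNA in Cy5.

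In the intestinal crypt, Atoh1 is the basic helix-loop-helix factor that commits a progenitor to the secretory fate, and the regulators described here act with it or after it. Spdef, an ETS factor, drives the maturation of goblet and Paneth cells, and the zinc finger repressor Gfi1 holds their precursors away from the enteroendocrine fate. Foxa3, Creb3l1 and Creb3l4 are linked to the mature secretory cell, the last 2 as bZIP factors that are released from the endoplasmic reticulum membrane by proteolysis. Cbfa2t3 and Cbfa2t2 are corepressors of the ETO family, which have no DNA-binding specificity of their own and are brought to DNA by partners such as basic helix-loop-helix proteins. In RNA from sorted pools, a smaller share of cells of a type and less RNA per cell cannot be told apart.

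No ratio has a replicate error, since each population was hybridised once apart from the EGFP-only RNA, and no test was made. A gene is called 2-fold higher where its log2 ratio is 1 or more and 2-fold lower where it is −1 or less. The one repeat in the design is the EGFP-only channel, measured on both arrays. Over 15640 probes the log2 difference between its 2 spot medians, taken without background correction, had an SD of 0.084. Background left in the readings narrows this spread for dim probes. The sources used here do not say whether the readings are of 1 extract or 2. The SD therefore stands for technical spread and says nothing of the spread between mice. The dyes were not swapped, so a dye effect of a single probe and a difference from the EGFP-only population cannot be told apart. Of all probes, 67.0% to 77.1% were above background in a channel, meaning above the mean plus 2 SD of the blank spots. Lgr5 itself stood at a log2 ratio of 0.26 in the double-positive and −0.89 in the tdTomato-only population, the former −0.26 with median centring. Of the stem cell markers, 3 of 10 were 2-fold lower in the double-positive and 7 of 9 in the tdTomato-only population. The balance of all calls depended on the scaling. In the double-positive comparison 93.8% of the genes past 2-fold were higher, against 83.7% after quantile normalization, 74.8% in the authors' deposited ratios, 74.5% with the blank mean subtracted and 33.0% with median centring. In the tdTomato-only comparison the share was 83.8%, against 70.1%, 59.4%, 67.4% and 32.4% in the same order. Median centring in place of loess moved the median of all genes above background from −0.01 to −0.21 on both arrays.

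Of the 6 members above background, 4 passed 2-fold upwards in double-positive cells and 5 in tdTomato-only cells, and none was 2-fold lower in either. Spdef, Cbfa2t3, Gfi1 and Foxa3 passed 2-fold in both. Creb3l1 lay at the limit, and Cbfa2t2 was nearly level in all populations. Over all genes, 5.10% were 2-fold higher in the double-positive and 6.15% in the tdTomato-only population. The share 2-fold lower was 0.340% and 1.19%, and 4.17% of 11318 genes were 2-fold higher in both. The members' median log2 ratio was 1.65 in the double-positive and 1.80 in the tdTomato-only population, beside −0.01 over all genes in each. Both comparisons share the EGFP-only reference, so their likeness is not independent support for either.

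**Figure D1:**
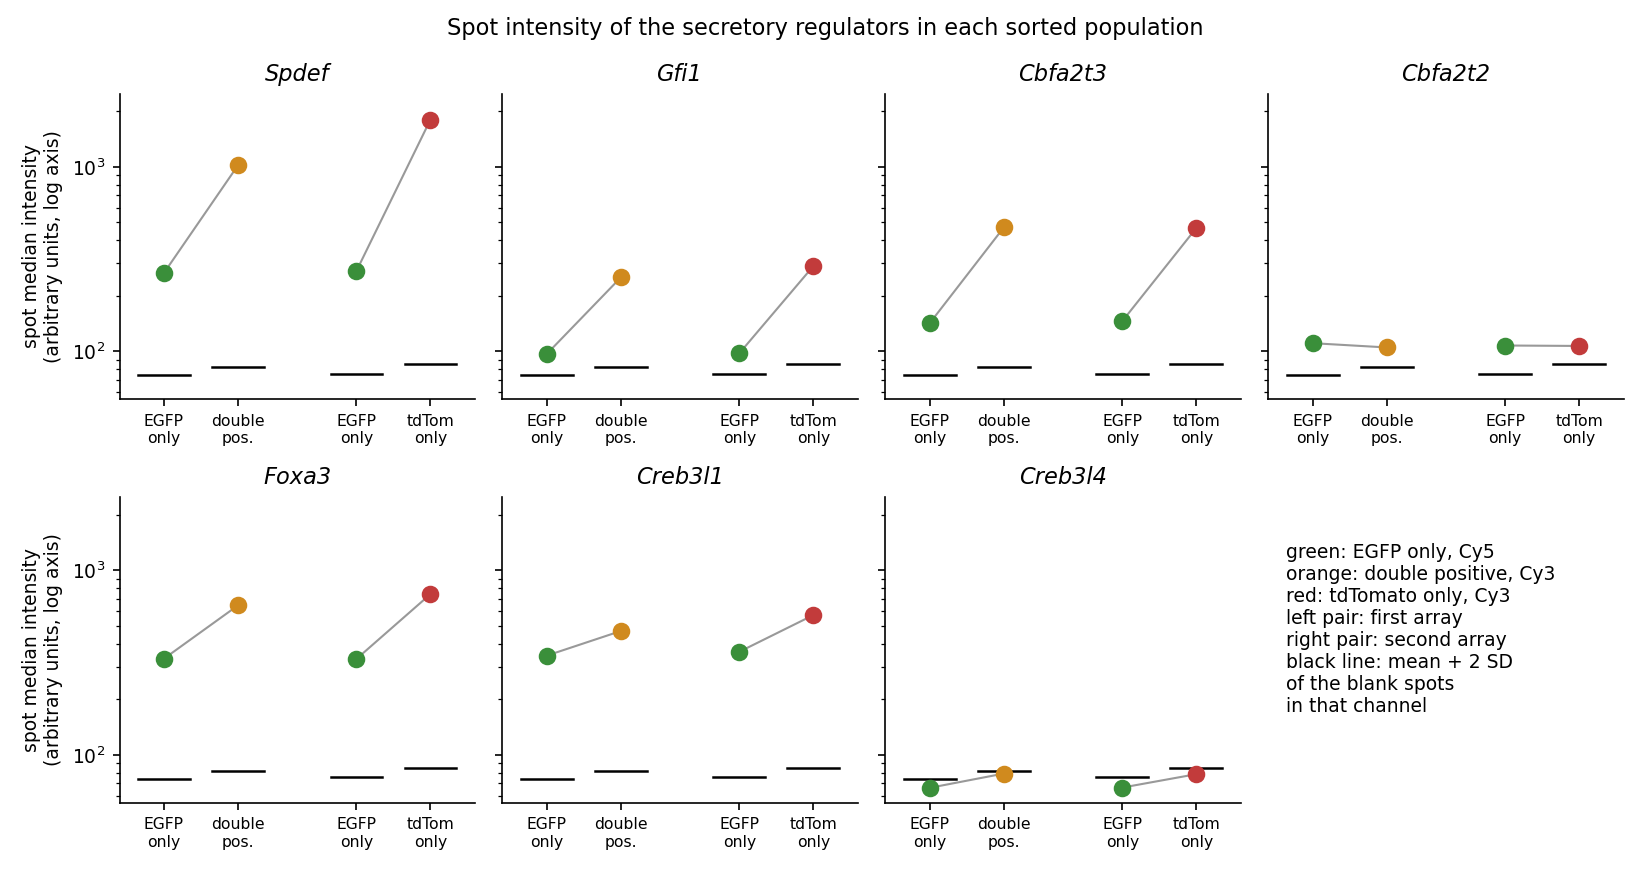
Spot median intensity (arbitrary units, log axis) of the 7 regulators with a probe, 1 point for each channel, with the left pair from the first array and the right pair from the second; black lines are the mean plus 2 SD of the blank spots. Spdef is at 266 and 273 in the EGFP-only channels and at 1020.0 and 1806 in the others, while all 4 points of Creb3l4 lie below their lines.

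Spdef had the highest log2 ratio of the members in the tdTomato-only population under every setting tried. Its spot intensity was 266 and 273 in the EGFP-only channel of the first and second array, 1020.0 in the double-positive channel and 1806 in the tdTomato-only channel. The Cy3 readings were far above both EGFP-only readings, which themselves differed by 0.04 on the log2 scale (SD 0.09 among the 500 probes nearest in brightness). The log2 ratio was 2.53 in the double-positive population, a 5.79-fold difference that ranked 112 of 11774 genes. In the tdTomato-only population it was 3.29, a 9.76-fold difference, ranked 57 of 11381.

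Gfi1 was dim in the EGFP-only population. Its intensities were 96.9 and 97.7 there, against limits of 74.1 and 75.7, and 252 in the double-positive and 290.2 in the tdTomato-only channel. Above the blank mean this is 28.7 and 29.3 units against 174 and 212. The log2 ratio was 1.79 in the double-positive and 1.94 in the tdTomato-only population, 3.45-fold and 3.84-fold. The value of so dim a probe depends on the background correction: the authors' deposited ratios gave 3.09 and 3.16, and subtracting the blank mean gave 3.13 and 3.26. On the deposited scale Gfi1 stood above Spdef, at 2.74, in the double-positive population but not in the tdTomato-only population, where Spdef had 3.38.

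The ETO family corepressors parted. Cbfa2t3 had intensities of 142 and 146 in the EGFP-only channels, 469.8 in the double-positive and 466 in the tdTomato-only channel, so that the Cy3 readings were close to each other and well above the reference. Its log2 ratios were 2.23 and 2.12, 4.71-fold and 4.35-fold higher, and 2.89 and 2.63 in the authors' deposited ratios. With the blank mean subtracted they were 2.97 and 2.80. Since Cbfa2t3 and Gfi1 exceeded Spdef in the double-positive population on these scales, the order of the 3 genes is not settled there. Cbfa2t2 read 111 and 108 in the EGFP-only channels, 105 in the double-positive and 107 in the tdTomato-only channel. Above the blank mean this is 42.5 and 39.3 units against 27.2 and 28.7, so the probe was dim in every population. The log2 ratios of Cbfa2t2, −0.07 and −0.09, lay close to the median of all genes, and no setting took them below −0.21 and −0.25. The third gene of that family, Runx1t1, had 0.41 and 0.47, within 2-fold, but 1.51 and 1.93 in the authors' deposited ratios.

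Foxa3, a forkhead factor of goblet cells, read 332 and 331 in the EGFP-only channels, 646 in the double-positive and 744 in the tdTomato-only channel. Its log2 ratio was 1.50 in the former population and 1.65 in the latter, 2.83-fold and 3.13-fold higher. It stayed past 2-fold in each setting tried, with the lowest values, 1.03 and 1.19, under median centring. Foxa1, a relative expressed more widely in gut epithelium, had 1.11 and 0.58 (0.67 and 0.18 with median centring), and Foxa2 0.46 and 0.49.

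Creb3l1 read 345 and 362 in the EGFP-only channels, 469 in the double-positive and 573 in the tdTomato-only channel. The log2 ratio of 0.94 in the double-positive population was just short of 2-fold and that of 1.11 in the tdTomato-only population just past it. With the blank mean subtracted the first became 1.09, with an offset of 10 it became 1.08, and with median centring and quantile normalization the second became 0.66 and 0.98, so on neither array is the side of the limit settled. Creb3l4 was not well above background in any channel, at 66.3 and 66.5 in the EGFP-only channels, 79.2 in the double-positive and 78.6 in the tdTomato-only channel, and it has no ratio. Among the relatives of these factors, Creb3l3, a liver and enterocyte factor of lipid metabolism, had larger log2 ratios than Creb3l1, at 2.03 and 2.44. Creb3 had 0.51 and 0.92, and Creb3l2 was above background only in the double-positive and tdTomato-only channels, at least 1.07-fold higher in each.

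**Figure D2:**
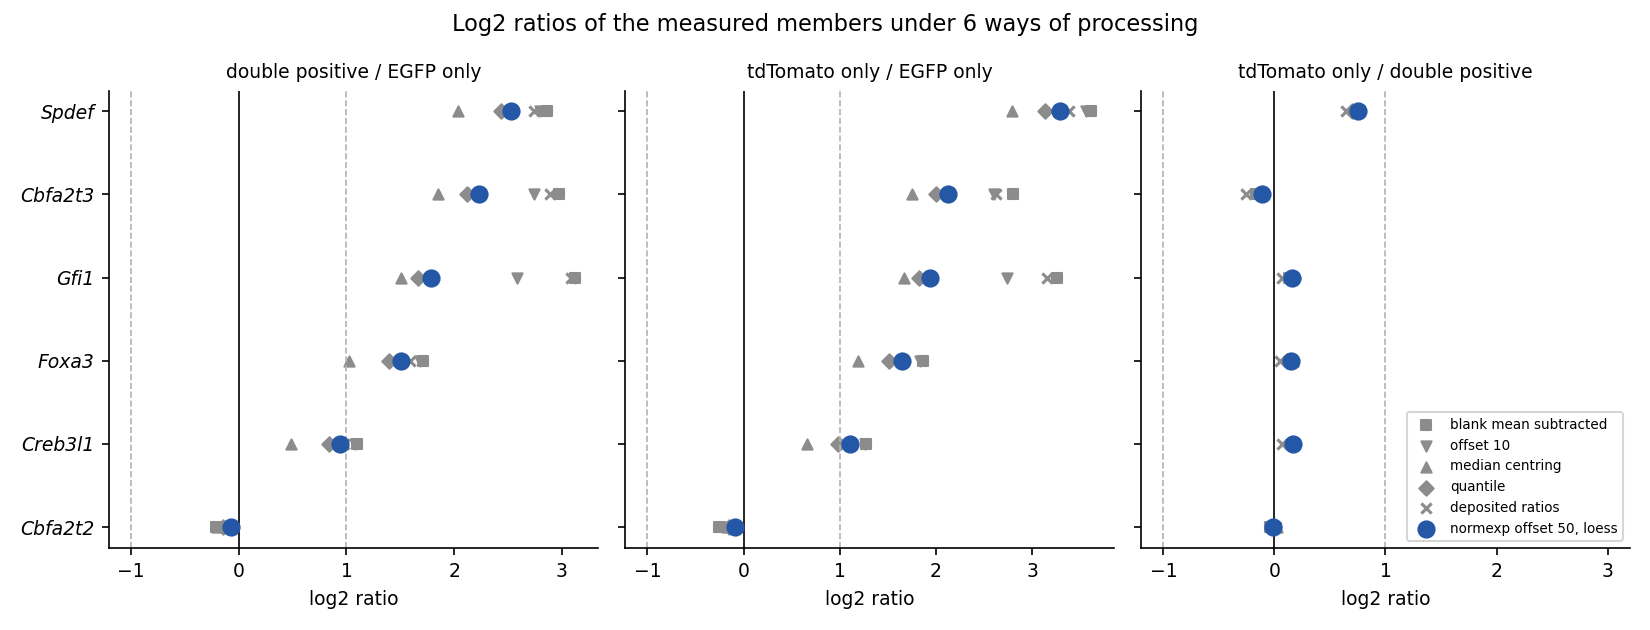
Log2 ratio of the 6 members above background in the 3 comparisons, with large points for normexp with offset 50 and loess and grey symbols for 5 other ways of processing; dashed lines mark 2-fold. Foxa3, Gfi1, Cbfa2t3 and Spdef stay right of the 2-fold line in the first 2 panels and Creb3l1 straddles it; in the third panel all points lie between the dashed lines.

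The stretches just upstream of the starts are shown for the 4 members past 2-fold in both comparisons and for Cbfa2t2, the relative that was level, since E-boxes are the sites that Atoh1 and other basic helix-loop-helix proteins bind. They are the 250 bases before the most upstream start listed by RefSeq in GRCm38.p6, read 5′ to 3′ along the gene. Of the 9 members, 8 had an entry in the promoter table, with Creb3l1 missing from it. Capitals mark matches to the E-box CANNTG, which reads the same on both strands, and to TGACGT or its reverse complement ACGTCA, the core bound by cyclic AMP response and ATF type bZIP factors.
Spdef, chr17:27728952-27729201, minus strand: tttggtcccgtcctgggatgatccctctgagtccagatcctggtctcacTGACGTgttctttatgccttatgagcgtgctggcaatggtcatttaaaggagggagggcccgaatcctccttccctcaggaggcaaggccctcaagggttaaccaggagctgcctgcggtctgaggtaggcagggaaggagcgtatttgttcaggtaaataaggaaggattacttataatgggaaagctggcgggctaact
Gfi1, chr5:107725806-107726055, minus strand: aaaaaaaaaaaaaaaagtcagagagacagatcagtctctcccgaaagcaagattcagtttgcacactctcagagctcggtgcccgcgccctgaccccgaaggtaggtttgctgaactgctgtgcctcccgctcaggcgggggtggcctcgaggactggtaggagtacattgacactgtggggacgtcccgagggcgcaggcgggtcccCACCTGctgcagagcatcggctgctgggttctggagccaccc
Cbfa2t3, chr8:122699110-122699359, minus strand: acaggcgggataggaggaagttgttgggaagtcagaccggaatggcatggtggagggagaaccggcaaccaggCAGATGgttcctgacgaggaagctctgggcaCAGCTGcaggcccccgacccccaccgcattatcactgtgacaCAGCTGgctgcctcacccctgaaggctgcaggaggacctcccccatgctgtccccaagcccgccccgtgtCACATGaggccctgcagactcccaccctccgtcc
Foxa3, chr7:19023540-19023789, minus strand: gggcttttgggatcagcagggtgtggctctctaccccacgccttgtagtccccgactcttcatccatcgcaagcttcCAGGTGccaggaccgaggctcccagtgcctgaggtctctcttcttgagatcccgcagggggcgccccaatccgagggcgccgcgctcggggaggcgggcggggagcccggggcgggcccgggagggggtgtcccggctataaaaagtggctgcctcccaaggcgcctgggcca
Cbfa2t2, chr2:154436234-154436483, plus strand: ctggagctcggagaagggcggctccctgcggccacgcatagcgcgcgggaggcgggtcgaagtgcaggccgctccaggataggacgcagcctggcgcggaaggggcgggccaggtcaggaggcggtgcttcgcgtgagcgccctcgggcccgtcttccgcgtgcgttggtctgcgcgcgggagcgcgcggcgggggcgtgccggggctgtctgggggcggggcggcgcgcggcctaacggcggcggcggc
Cbfa2t3 held 4 E-boxes here, 177, 146, 104 and 34 bases before the start, of which 2 were CAGCTG and 1 was CAGATG. Across 32851 RefSeq stretches of this length, 66.2% held at least 1 CANNTG, 3.84% held 4 or more, and 1.26% held 2 or more CAGCTG. Gfi1 held 1 E-box (CACCTG, 42 bases before the start) and Foxa3 held 1 (CAGGTG, 173 bases before it). Before the second listed start of Gfi1 and of Cbfa2t3, not printed, lay 1 E-box each. Spdef and Cbfa2t2 held none. Spdef held 1 TGACGT, 201 bases before its start, a match found in 6.47% of all stretches and in none of the other 4 sequences shown. The forkhead letters TGTTTAC, searched on both strands and present in 3.17% of stretches, matched none of the 5, and CACGNG, a core bound by Hes factors, matched Cbfa2t3 once and Cbfa2t2 at 2 places (23.5% of stretches). The CAGCTG and CAGATG matches are part of the CANNTG count. Letters in a window are a description, not evidence of binding.

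For the third comparison the double-positive array's log2 ratio was subtracted from that of the tdTomato-only array, which leaves the contrast of the tdTomato-positive populations, both in Cy3. None of the 6 members was past 2-fold in either direction, beside 0.813% of 11311 genes 2-fold higher and 0.274% 2-fold lower. Spdef was 1.69-fold higher in the tdTomato-only population (0.75), ranked 181 of 11311, and its value lay between 0.64 and 0.76 in every setting tried. Gfi1 (0.15), Foxa3 (0.15) and Creb3l1 (0.17) were slightly above 0, and Cbfa2t3 (−0.11) was slightly below, and each kept its sign in all settings. Cbfa2t2, at −0.02, turned to 0.02 with median centring and to 0.01 in the authors' deposited ratios. How far such small differences exceed the spread between hybridisations of Cy3 samples was not measured, because no Cy3 sample was repeated.

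**Figure D3:**
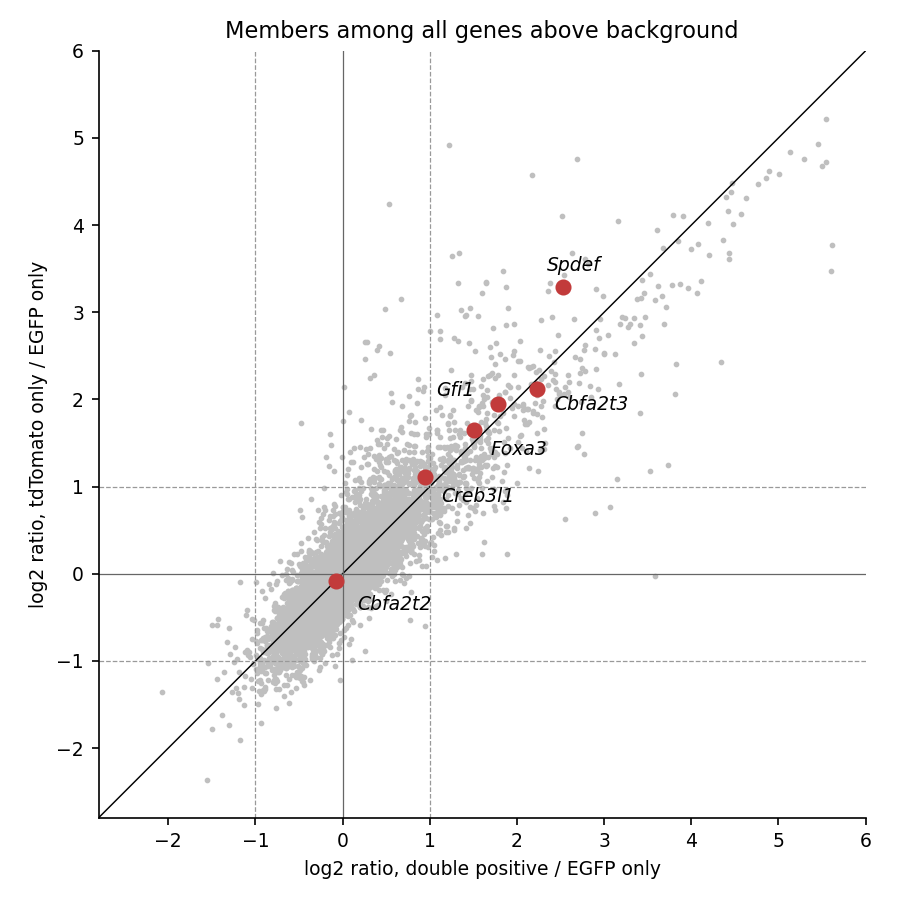
Log2 ratio over the EGFP-only population for 11318 genes above background in all 4 channels (grey), double positive on the x axis and tdTomato only on the y axis, with the 6 members in red; the solid diagonal marks equal ratios and dashed lines mark 2-fold. Spdef lies above the diagonal by 0.75, and the other 5 members lie within 0.17 of it.

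The genes nearest to each member in these 2 log2 ratios were found among 11308 unsaturated genes above background in all 4 channels. The measure rests on 2 values that share a reference, and it says nothing of a shared function. Nearest to Spdef were Cblif (2.54 and 3.43), the gastric intrinsic factor gene, Apoa4 (2.38 and 3.34), an apolipoprotein gene of enterocytes, and Tm4sf4 (2.36 and 3.25). Only 3 genes lay within a distance of 0.25 of it, against 40 for Foxa3, 26 for Gfi1 and 19 for Cbfa2t3. Nearest to Gfi1 were Qsox1 (1.71 and 1.97), a disulfide-forming enzyme of the secretory pathway, the ceramidase gene Asah2 (1.80 and 2.05) and Edem2 (1.84 and 1.84), which acts in the degradation of misfolded glycoproteins. Nearest to Cbfa2t3 were the RNA-binding protein gene Msi1 (2.23 and 2.06), Ino80d (2.23 and 2.06), which encodes a chromatin remodelling subunit, and the antiproliferative gene Btg2 (2.22 and 2.19). For Foxa3 they were Adgre5 (1.51 and 1.68), Dap (1.48 and 1.61) and the amino acid transporter gene Slc6a19 (1.51 and 1.70).

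The products of mature goblet and Paneth cells were mostly higher as well. Of 22 measured goblet products, 16 were 2-fold higher in double-positive cells and none 2-fold lower, with a median log2 ratio of 1.81 (1.08 with median centring). The largest were the chemokine gene Ccl6 (4.47), the guanylin gene Guca2a (3.61) and Spink4 (3.52, saturated in Cy3 and so an underestimate). In the tdTomato-only population 18 of 21 passed 2-fold, at a median of 2.97 (2.36 with median centring) and with Zg16 (4.57, saturated in Cy3), Ccl6 (4.48) and Rep15 (4.11) highest as measured, with Tff3 (3.30) and Spink4 (3.43) saturated too. Retnlb was above background there in the tdTomato-only channel alone, by this bound at least 3.54-fold higher. Muc2, which encodes the main mucin of goblet cells, had −0.40 and 0.16, within 2-fold in both. Its probe was dim, at 146 and 152 units above the blank mean in the EGFP-only channels, 63.9 in the double-positive and 128 in the tdTomato-only channel. Agr2 had 5678 and 5567, then 16892 and 36866. How well this Muc2 probe reports its RNA was not tested. Of 15 Paneth products, whose lowest log2 ratios were −0.24 and −0.92, 13 passed 2-fold in double-positive and 12 in tdTomato-only cells. Their medians, 4.19 and 4.03 (3.14 and 3.23 after quantile normalization), are both the value of Ang4, a probe saturated in Cy3, and so underestimates. Of the 15, 6 were saturated in the double-positive and 5 in the tdTomato-only channel, and can be placed in no order. Among the unsaturated products the largest were Clps (5.55 and 5.22), Ang5 (5.50 and 4.67), a member of a family of near-identical angiogenins, and Pnliprp2 (5.45 and 4.93).

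Between the Cy3 populations, the medians of the goblet and Paneth products lay on opposite sides of 0. Goblet products had a median of 0.71 in the tdTomato-only over the double-positive population, with 8 of 20 past 2-fold, led by Zg16 (2.40, saturated in the tdTomato-only channel), Tpsg1 (2.39) and Bcas1 (2.34). The 5 Paneth products saturated in both Cy3 channels have no ratio here. All 10 others lay below 0 (9 with median centring), with a median of −0.32 and none past 2-fold. Ang5 (−0.82), the inflammasome gene Nlrp6 (−0.68) and Pnliprp2 (−0.52) were furthest from it. Spdef, at 0.75, was near the goblet median, and the remaining members lay between −0.11 and 0.17. A value above 0 was not particular to goblet products: enteroendocrine (0.61), enterocyte (0.24) and tuft (0.15) markers also had medians above 0. Medians of stem cell (−0.77), cell cycle (−0.31) and T and intraepithelial lymphocyte markers (−1.19) lay below it. Medians over all genes were −0.02 in that comparison.

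**Figure D4:**
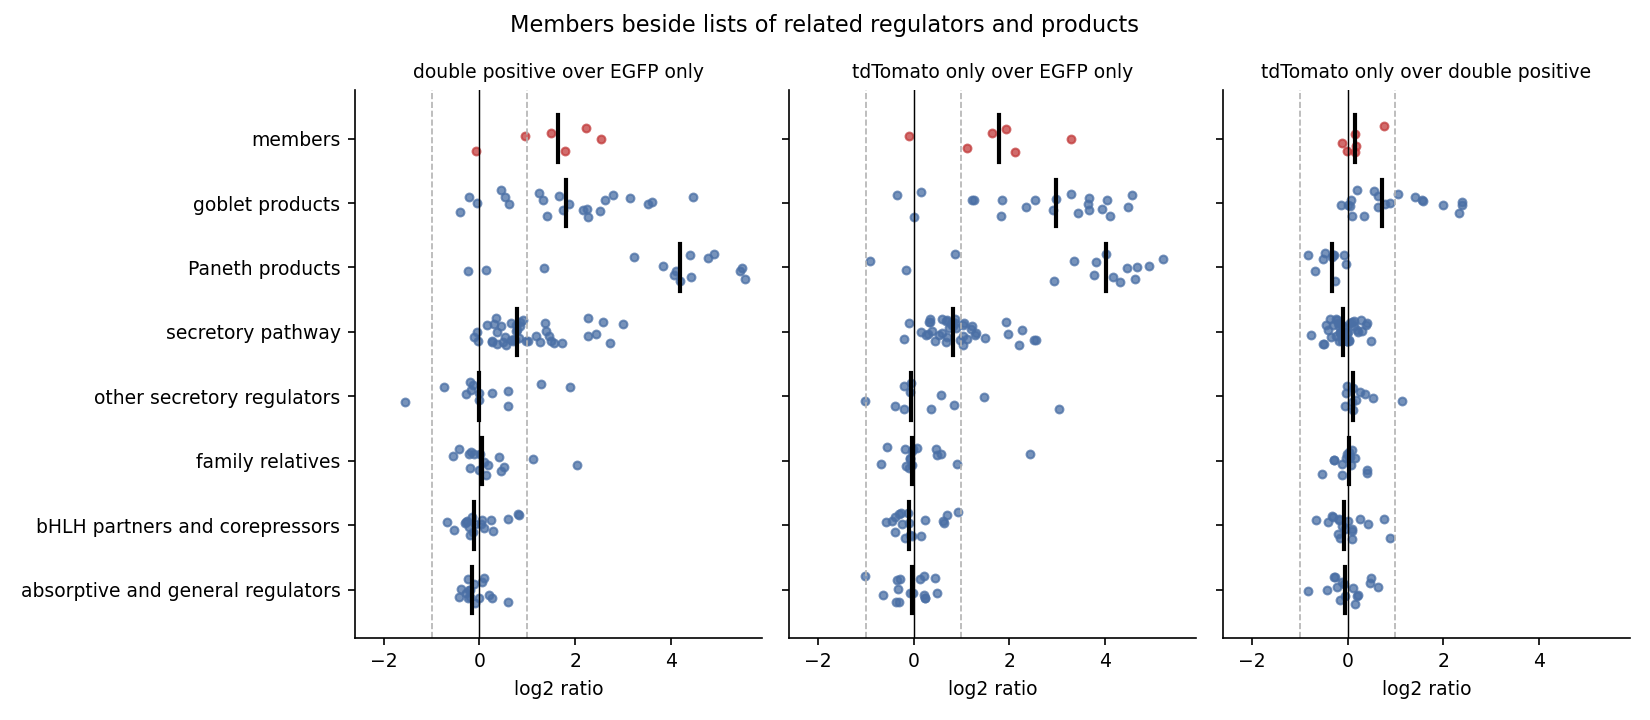
Log2 ratio of each measured gene (points) in the 3 comparisons, for the 6 members (red) and 7 lists of related genes (blue), with black bars for medians, dashed lines for 2-fold and vertical scatter for legibility only. Goblet and Paneth products lie mostly right of 2-fold in the first 2 panels, and the lists of other regulators are spread around 0.

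Genes of protein entry, folding and vesicle transport in the secretory pathway, the kind of gene that factors of the Creb3 family act on, had medians above 0 in both comparisons. In the double-positive population 15 of 42 were 2-fold higher, at a median of 0.78, and in the tdTomato-only population 16 of 41, at a median of 0.83. None was 2-fold lower. Median centring lowered these medians to 0.17 and 0.23 and the counts past 2-fold to 7 and 6. Quantile normalization and the authors' deposited ratios each lowered the second count to 9. The coat protein genes Copz2 (3.00 and 2.52) and Sec24d (2.58 and 2.28), the cochaperone gene Dnajb9 (2.73 and 1.97) and the retrieval receptor gene Kdelr3 (2.27 and 2.56) were highest. Mbtps1 (0.31 and −0.10), which encodes the site-1 protease that cleaves these factors, was within 2-fold. Between the Cy3 populations none of 41 was past 2-fold, with a median of −0.09 and Dnajb9 (−0.76), Spcs3 (−0.52) and Sec13 (0.49) furthest from 0.

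Other regulators of secretory lineages did not share one direction. Of 13 measured in the double-positive population, Klf4 (1.90), a zinc finger factor needed for goblet cell maturation, and Xbp1 (1.29), a stress response factor of secretory cells, passed 2-fold upwards. Median centring brought Xbp1 to 0.51, and the authors' deposited ratios brought it to 0.94. Neurog3, which specifies enteroendocrine cells and is held down by Gfi1 in the known pathway, was 2-fold lower at −1.55. In the tdTomato-only population the same genes had 3.05, 1.47 and −1.02 of 11 measured. Bhlha15 (0.61 and 0.56), a factor of mature secretory cells, and the Notch ligand genes Dll1 (0.25 and 0.36) and Dll4 (0.60 and 0.85) were within 2-fold. Klf4 was the only gene of the 11 past 2-fold between the Cy3 populations, at 1.15, beside Neurog3 at 0.53 and Neurod1 at 0.36. The 12 enteroendocrine markers, which include Neurog3, had medians of −0.89 and −0.40. Of these 6 were 2-fold lower in the double-positive population. In the tdTomato-only population Neurog3 alone was 2-fold lower, and Sct, which encodes the hormone secretin, was 2-fold higher at 1.65. Atoh1 was listed among the other regulators of secretory lineages, but it lacked a log2 ratio in at least 1 comparison with EGFP only. No value is given for it.

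Family relatives of the members were mostly within 2-fold. Of 16 measured, Creb3l3 and Foxa1 passed 2-fold upwards in the double-positive population and Creb3l3 alone in the tdTomato-only population, and none was 2-fold lower. The medians of 0.05 and −0.04 changed sign with the setting, the first with median centring (−0.11) and the second in the authors' deposited ratios (0.045). Hes5, a Notch target that opposes the secretory fate, was lowest at −0.56 and −0.67, but the latter passed 2-fold when the blank mean was subtracted (−1.01) and in the authors' deposited ratios (−1.16). Hes1, the main effector of that kind, had 0.18 and −0.10. Between the Cy3 populations none of 15 was past 2-fold, with Foxa1 (−0.53), Creb3l3 (0.41) and Creb3 (0.41) furthest from 0.

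None of the 18 measured partners of basic helix-loop-helix, GFI1 and ETO factors was past 2-fold in any of the 3 comparisons, though with other processing some were. Id4 reached 2.22 in the tdTomato-only population and 1.85 between the Cy3 populations in the authors' deposited ratios, and Id1 reached −1.35 in the double-positive population with median centring. Tcf12, an E protein that pairs with Atoh1, had 0.83 and 0.63, and the corepressor gene Ncor1 had 0.81 and 0.70. Kdm1a, the demethylase recruited by Gfi1, had 0.09 and −0.07. Id1 (−0.67 and −0.24), an inhibitor of E proteins, was lowest in the double-positive population, and Id4 (0.93) highest in the tdTomato-only population. Between the Cy3 populations Id4 (0.90), Id3 (0.75) and the E protein gene Tcf3 (−0.66) were furthest from 0. Of 16 absorptive and general intestinal regulators none passed 2-fold in the double-positive population, with Gata5 (0.61), Cdx2 (−0.43) and Nr1h4 (−0.38) furthest from 0. In the tdTomato-only population Notch1 (−1.02) was just past 2-fold lower, followed by Smad4 (−0.64) and Hnf4g (0.48). Between the Cy3 populations Notch1 (−0.82), Nr1h4 (0.63) and Hnf4g (0.49) were furthest, none past 2-fold, though Notch1 had −1.18 in the authors' deposited ratios.

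Markers of some other cell types were higher along with the members, and those of others were not. Gfi1 and Cbfa2t3 are also known from blood cells, and genes of T and intraepithelial lymphocytes were higher in both tdTomato populations. Of 8 measured, 8 were 2-fold higher in the double-positive and 6 in the tdTomato-only population, with medians of 2.76 and 1.54. The summed intensity of the 9 listed genes on the array, above the blank mean, was 1586 and 1519 units in the EGFP-only channels, 12581 in the double-positive and 5467 in the tdTomato-only channel. Cd3e, which encodes a subunit of the T cell receptor complex, was not well above background in any channel. The related genes Cd3d (1.87 and 0.96) and Cd3g (2.70 and 1.46) were above it in all 4 channels. How well the Cd3e probe reports its RNA was not tested. Between the Cy3 populations all 8 measured lymphocyte genes lay below 0, with a median of −1.19, while Gfi1 stood at 0.15 and Cbfa2t3 at −0.11. Of 8 myeloid or mast cell genes measured in the double-positive population 3 were 2-fold higher, and of 6 in the tdTomato-only population 1. Their medians were 0.19 and 0.47, but 1.615 and 1.32 in the authors' deposited ratios and 1.22 and 1.22 with the blank mean subtracted. Their sums were 384 and 374 units in the EGFP-only channels, 1434 and 1147 in the others, of which the complement gene C1qb alone gave 58.3 and 57.6, then 931 and 774. The macrophage genes Csf1r (−0.19 and −0.06) and Cd68 (−0.16 and −0.26) were within 2-fold. Enterocyte markers, with 6 of 8 and 7 of 8 past 2-fold, also stood above the EGFP-only level in both populations (medians of 2.46 and 3.02). Medians were within 2-fold for tuft (−0.24 and −0.0025), B or plasma cell (0.34 and 0.06) and fibroblast, muscle or endothelial markers (0.09 and −0.14). Stem cell (−0.64 and −1.22) and cell cycle markers (−0.57 and −1.24) had medians below 0. The part of these other cell types in the members' values was not tested.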

How the data were processed

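The study hybridised 3 sorted populations of mouse small intestinal epithelial cells to 2 two-colour Toray arrays. Per the file headers, the scanner output that the authors deposited for each array gives spot median intensities at 635 nm (Cy5) and 532 nm (Cy3), and blank spots show that it is not background-subtracted. The deposited log2 ratios, which the labels describe as normalized and as Cy3 over Cy5 population, were rebuilt within 0.02 for 99.99% of probes by subtracting a trimmed blank mean (5% off each end) and centring the log2 ratios, so their scale, direction and centring (a median of 0) are known.

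Here intensities were corrected by normexp (offset 50, no local background) and normalized by loess, giving controls and quality-marked spots no weight (limma 3.58.1, R 4.3.3, Python 3.11.15). Above background means over the mean plus 2 SD of 2736 blank spots. Probes of a gene were averaged, and each member has 1. A bound for a gene seen in 1 population compares its bright level with the higher of 2 values, the dim probe's level and the lowest level above background (loess, then Aquantile), and can carry dye bias. Saturated probes, 25 in each Cy3 channel and none of a member, were kept, apart from those saturated in both in the third comparison. Of 16632 named probes, 3947 symbols were updated and 12622 current by RefSeq GRCm38.p6, 59 were ambiguous and 3 unmatched, while 6842 probes were unnamed here. Promoter sequences are RefSeq's.

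No test was made, and the number of arrays limits the precision. The steps were run on simulated arrays built from the EGFP-only readings with few changed probes. Such arrays cannot show which normalization suits the real ones. From each list the text names, per comparison, the 3 genes whose log2 ratio is furthest from 0 and any gene with a bound of 2-fold or more. Values in other comparisons are given for some of these genes only. Other list genes, among them relatives of members, Muc2, Mbtps1 and Kdm1a, were named after their values were seen. The members and lists were chosen with earlier results of these data known.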

Additional observations from a re-analysis of the deposited data

How the results depend on the processing

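Each value was recomputed under 8 other settings. The number of members 2-fold higher was 4 or 5 in each of the comparisons with EGFP only, and 0 in the third comparison. The share of all genes 2-fold higher varied more. In the double-positive comparison it ran from 3.09% (median centring) to 10.6% (the authors' deposited ratios). In the tdTomato-only comparison it ran from 3.58% (median centring) to 10.8% (blank mean subtracted). No setting made a member 2-fold lower. A stricter limit for background and no filter decide only whether a probe is kept, and taking the brightest probe changes nothing for genes with 1 probe, so these 3 settings could not move the 6 members' values. Under the 5 others, 57 of 90 member log2 ratios moved by more than the technical SD of 0.084 and 33 by less. That SD is of readings without background correction, so for dim probes it is a narrow yardstick. In 4 the side of 2-fold changed, all of them values of Creb3l1, and in 2 the sign, both of Cbfa2t2 between the Cy3 populations. Gfi1 ranged from 1.51 to 3.13 in the double-positive and from 1.67 to 3.26 in the tdTomato-only population, and Cbfa2t3 from 1.85 to 2.97 and from 1.75 to 2.80. The lowest of these came from median centring and the highest from subtracting the blank mean. Of 168 recomputed list counts at least 2-fold higher, 20 moved by over 1.5 times. No paired analysis was possible because each group holds 1 sample. Without repeated Cy3 samples or a dye swap, neither the biological spread nor dye effects of single probes can be measured here.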
